A study of Mus musculus with 8 samples.

Results

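Malat1 and Neat1 are long noncoding RNAs that stay in the nucleus, and here their transcription start sites (TSSs) were described in mouse embryonic stem cells (mESCs), together with those of Tug1, Miat and Firre. Of the 5 genes, Malat1 carried by far the most CAGE tag clusters, spread over most of its length, whereas the clusters of Neat1 lay at its start and in its first stretch, and Tug1, Miat and Firre had from 1 to 3. A tag cluster is a run of neighbouring 5′ ends of capped RNA on 1 strand. A cluster was assigned to a gene when it lay on the gene's strand and its dominant TSS, the base with the strongest signal, fell between 500 bp upstream of the gene start and the gene end. This rule gave 60 clusters in each line, of 32857 clusters in E14, 33005 in Pwwp2a/b DKO clone A1 and 32870 in clone C7.

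The study asked how loss of PWWP2A and PWWP2B, chromatin proteins that act with a histone deacetylase complex, alters transcription initiation. Nuclear RNA was used from wild-type E14 mESCs (3 libraries) and from 2 clones of E14 cells with a double PWWP2A/B knockout, A1 (2 libraries) and C7 (3 libraries). All lines grew in medium with foetal calf serum and LIF. Each knockout line is a single clone, so an effect of the deletion and a trait of the clone cannot be told apart within 1 line. The libraries of a line were merged by the authors before clusters were called, and the deposited clusters carry positions only, with no signal and no depth. The values below are therefore 1 per line, with no replicate error and no test.

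The lines held clusters at genes of the pluripotent state. Pou5f1 had 7 clusters in each line, Zfp42 had 23 and Nanog had 2, and of 4 genes that mark differentiated cells Gata6, T and Pax6 had no cluster in any line, while Sox17, an endoderm gene, had 1 in each, at its promoter. Pwwp2a had 2 clusters in each line and Pwwp2b had 0 in each, E14 included. Clusters mark starts and not intact coding sequence, so they check neither deletion.

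Malat1 RNA gathers in nuclear speckles, bodies rich in splicing factors, and is among the most abundant nuclear transcripts of mammalian cells. It is made from a gene with a long single exon, and its 3′ end is formed by RNase P, which releases a tRNA-like small RNA. Neat1 RNA is the scaffold of paraspeckles, which assemble along its long isoform and hold proteins such as NONO and SFPQ. Tug1 and Miat are spliced noncoding RNAs, and Firre is an X-linked RNA with local repeats that takes part in nuclear organisation.

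All 5 genes lie on the minus strand. In GENCODE release M21 on mm10, Malat1 spans chr19:5795690-5802672 and Neat1 spans chr19:5824708-5845478, so that both are neighbours on chromosome 19. Tug1 spans chr11:3639785-3649673, Miat spans chr5:112213228-112229395 and Firre spans chrX:50555744-50635321. Positions below are given as distances from the gene start, counted from 0 at its first base in the direction of transcription.

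The bases at the starts are shown because the 5 genes differed in how sharply initiation was placed. For Malat1, 100 bases of the minus strand at chr19:5802632-5802731 are given from the RefSeq promoter window (GRCm38.p6), with the interquantile region in E14 in capitals. The interquantile region is the part of a cluster that holds the signal between its quantiles 0.1 and 0.9. For Tug1, 76 bases at chr11:3648989-3649064 are given in the same way. For Neat1, 40 bases at chr19:5845439-5845478 are given from transcript Neat1-201, with the dominant TSS in capitals; its interquantile region holds this base and the 1 before it, which the transcript does not include.
Malat1 start: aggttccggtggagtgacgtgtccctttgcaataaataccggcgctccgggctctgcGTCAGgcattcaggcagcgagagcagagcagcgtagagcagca
Tug1 start: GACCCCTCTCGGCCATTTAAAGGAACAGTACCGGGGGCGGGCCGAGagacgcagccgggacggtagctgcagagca
Neat1 start: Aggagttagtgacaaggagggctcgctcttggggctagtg

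In Malat1 the capitals hold 5 bases and the dominant TSS is the A of the step CA among them, 1 bp from the annotated gene start. In Tug1 the capitals run over 46 bases. In Neat1 the dominant TSS is the first annotated base. The run AATAAATA on the same strand begins 29 bp upstream of the Malat1 gene start. It was looked for after it had been seen there, and 2.56% of 32851 RefSeq promoter windows of the same length hold it on either strand. The letters TATAA, which 24.9% of the windows hold on either strand, were in none of the windows of Malat1, Tug1, Miat and Firre, and neither was CCAAT, held by 37.4%. The letters GGGCGG, held by 35.7%, were found on the same strand in the Tug1 and Firre windows and on the opposite strand in the Miat window. These windows do not all hold the starts seen here. The Miat window, chr5:112228899-112229198, lies wholly upstream of the only Miat cluster, so its letters do not describe that start. The Firre window, chrX:50635272-50635571, ends before the dominant TSS, and the Tug1 window, chr11:3648765-3649064, begins inside the Tug1 cluster.

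Inside Malat1, 46 tag clusters were present in E14, 46 in A1 and 46 in C7. No other lncRNA gene of the 958 with a cluster in E14 had as many, and over all 13144 genes with a cluster in E14 Malat1 ranked 7th by number, after Gm20388 (86), Gm47283 (82), Tet1 (76), Akap12 (53), Mki67 (53) and Srrm2 (47). A cluster counts for each gene whose window holds it, and 0 of the clusters of Gm20388 and 3 of those of Gm47283 lay in their own exons. By number of exonic clusters Malat1 was 3rd in each line. The median gene had 1 cluster. The annotated exons of Malat1 cover its whole span of 6983 bp, so any dominant TSS inside the gene is exonic by annotation. All 46 lay inside it, which gave 6.59 clusters per kb of exon in each line. The median over all genes was 0.269 per kb in E14, and the median over lncRNA genes was 0.273. By density Malat1 was 86th of all genes and 4th of the lncRNA genes. These ranks depend on how clusters are separated. When clusters of 1 line within 100 bp of each other were counted as 1, Malat1 had 7 in each line, or 1.00 per kb of exon, and its rank by density in E14 fell to 1010 of 10989 genes with an exonic cluster.

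**Figure D1:**
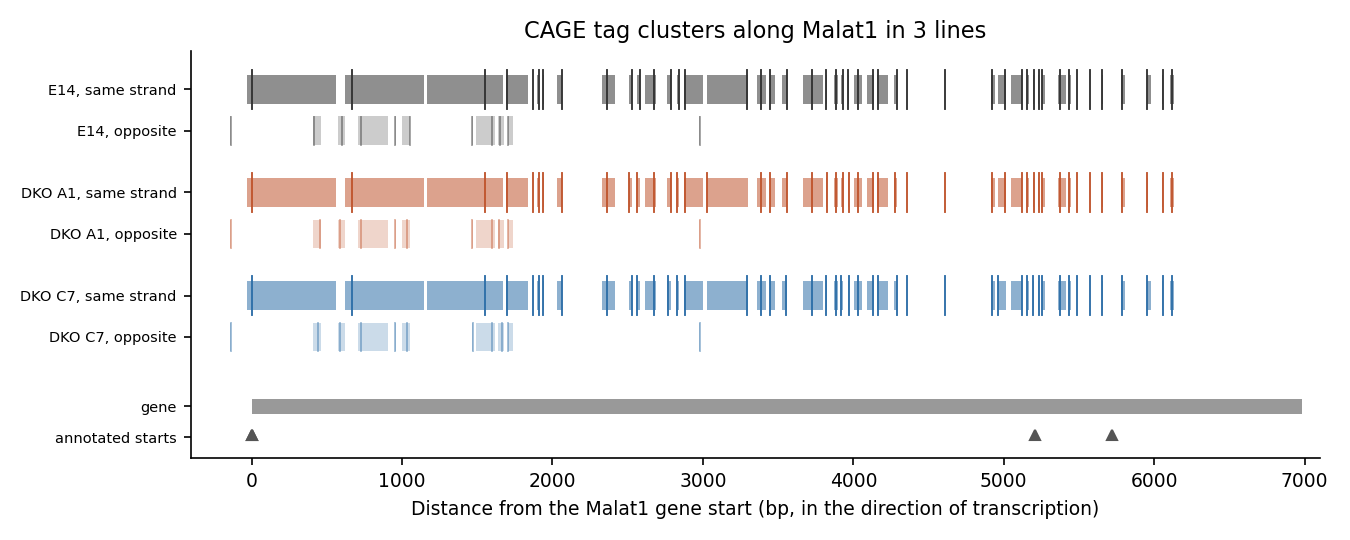
Tag clusters along Malat1 by distance from the gene start in bp, for E14, DKO A1 and DKO C7 on the gene's strand and on the opposite strand. Boxes span whole clusters, thin lines mark the dominant TSS, the grey bar is the gene and triangles are annotated transcript starts; the 46 same-strand clusters run from the start to 6129 bp, and opposite-strand clusters gather in the first 2000 bp.

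Coverage was lower with distance from the start when the gene was divided at 2000 and 4000 bp. Over the first 2000 bp, 7 clusters covered 88.5% of the bases in each line. From 2000 to 4000 bp, 17 clusters covered 49.9%. From 4000 bp to the gene end, 22 clusters covered 18.7% in E14 and C7 and 17.9% in A1. Together the clusters covered 47.6% of the gene in E14, 47.6% in C7 and 47.3% in A1, the 8th largest share in E14 among 12485 genes of at least 1 kb with a cluster, for which the median was 0.188%. The gaps between neighbouring clusters had a median of 35 bp and none exceeded 306 bp. The last cluster ended at 6129 bp, and the final 853 bp, which hold the 3′ end formed by RNase P, had no cluster in any line.

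The signal at the annotated start of Malat1 was more concentrated than in the long clusters that follow it. Whether the capped 5′ ends inside the gene arise from initiation there was not tested. The start cluster at chr19:5802108-5802703 was 596 bp long, the 7th longest of all clusters in E14, yet its interquantile region held 5 bp in E14 and 8 bp in each clone. Its dominant TSS was at the same base in the 3 lines. The next cluster, chr19:5801528-5802053, was 526 bp long with an interquantile width of 198 bp in E14, while A1 had 201 bp and C7 199 bp. The cluster after it, chr19:5801004-5801506, reached an interquantile width of 335 bp in E14, where it was the 11th widest cluster, of 353 bp in A1 and of 362 bp in C7, where it was the 10th. These clusters differ from the start cluster in that their signal was spread over far more bases, while their dominant TSSs, at 670 and 1551 bp, were again the same in the 3 lines. Over all 46 Malat1 clusters the median interquantile width was 17 bp in E14 and C7 and 17.5 bp in A1. In E14 27 of them lay within 500 bp of an annotated transcript start of any gene and 19 did not. Over all genes of E14, clusters in exons and outside that distance, the exon class, had a median of 3 bp. Promoter clusters, those within it, had one of 20 bp.

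The position classes at Malat1 need care. Within 500 bp of an annotated transcript start lay 27 clusters in E14 and C7 and 26 in A1. All others were of the exon class, that is, in an exon and outside that window. The exonic numbers and densities above instead count every cluster with its dominant TSS in an exon, whatever its class. In each line 17 of the clusters within 500 bp lay near a start of Malat1 itself. These starts include those annotated inside the gene, Malat1-202 at 5208 bp and Malat1-204 at 5720 bp. The remaining 10 in E14 and C7 and 9 in A1 were near the start of Gm27694 alone, a short RNA model inside Malat1. With a window of 100 bp the number fell to 9 in each line.

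The bases around 5 dominant TSSs inside Malat1 are shown because 4 of them lack the CA step found at the start, the last one alone having it. Each line gives 20 bases before the TSS and 20 from it on, read from transcript Malat1-201. The last base before the TSS and the TSS itself are in capitals. They are at chr19:5801983-5802022, chr19:5801102-5801141, chr19:5799357-5799396, chr19:5799624-5799663 and chr19:5796537-5796576.
Malat1 670 bp, 3 lines: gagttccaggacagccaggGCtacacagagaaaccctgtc
Malat1 1551 bp, 3 lines: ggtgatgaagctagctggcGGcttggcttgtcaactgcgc
Malat1 3296 bp, E14 and C7: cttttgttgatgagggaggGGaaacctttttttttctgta
Malat1 3029 bp, A1: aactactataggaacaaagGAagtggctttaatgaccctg
Malat1 6116 bp, 3 lines: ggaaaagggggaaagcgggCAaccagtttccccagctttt

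Over the 46 dominant TSSs of Malat1 in E14, 36 had a G just before the TSS. That is 78.3%, beside 72.1% over the exon-class clusters of all genes in E14, of which 99.6% could be read. The exon class leaves out clusters within 500 bp of an annotated start, where 27 of the 46 Malat1 clusters lay in E14, so the sets differ in kind. In A1 the shares with a G before the TSS were 71.7% and 70.9%, and in C7 73.9% and 71.5%. Malat1 thus lay close to the exon class in the clones. In E14 the pair GG across the TSS occurred at 17 (37.0%), beside 18.1% of exon-class clusters, and made up 6.83% of all pairs in Malat1-201. In the clones GG occurred at 15 of 46 in A1 and 15 of 46 in C7, beside 17.5% and 16.4% of exon-class clusters. The step from a pyrimidine to a purine, the usual sequence at promoters, was found at 2 of 46 in each line (4.35%). The start cluster was 1 of the 2, and 10.5% of exon-class clusters in E14 had the step. The 46 sites share 1 transcript and its composition, so these shares are a description.

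Clusters on the opposite strand of Malat1 were frequent. In each line 11 lay within the same window, from 140 bp upstream to 2979 bp, and 22 of 13144 genes had at least as many in E14, whereas 66.9% of genes had none. Of the 11, 10 overlapped a same-strand cluster, and of the 567 bp they covered, 517 bp were shared with it. On the same strand 5 of the 46 Malat1 clusters were overlapped in this way, the 4 at the start of the gene and the one whose dominant TSS lay at 2882 bp. Over all clusters of E14, 1.67% overlapped an opposite-strand cluster. The share was 2.75% for clusters of the exon class. It was 2.34% for clusters whose interquantile region held 10 bp or more, and 4 of 31 for those at Malat1. Overlap was counted over whole clusters. The 5 overlapped Malat1 clusters were 125 to 596 bp long, against a median of 16 bp for all clusters of E14. The shares thus do not compare clusters of like length. The widest opposite cluster, chr19:5801767-5801967, had its dominant TSS 3 bp from the start of Gm37376, an unspliced plus-strand model that lies inside Malat1.

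Neat1 had 9 clusters in E14, 9 in A1 and 9 in C7, all between 355 bp upstream and 2110 bp inside the gene. The number was 5 in each line both when clusters within 100 bp of each other were counted as 1 and when only those whose interquantile region held at least 3 bp were kept. In E14 their dominant TSSs were at -333, -129, -60, 0, 130, 273, 299, 1844 and 2075 bp. The start cluster, chr19:5845405-5845484, was 80 bp long with an interquantile width of 2 bp in each line, narrower than the start cluster of Malat1. Its dominant TSS was the first annotated base in the 3 lines. The clusters at -333 and 2075 bp were broader, with interquantile widths of 27 bp in E14 and 30 bp in both clones for the first, and of 32 bp in each line for the second.

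No same-strand cluster lay in the last 18660 bp of Neat1, so the stretch beyond the end of Neat1-202, the short isoform, at 3171 bp had none. That stretch holds the rest of the long isoform and a further transcript, Neat1-204, whose annotated start is at 17466 bp. Neat1 clusters covered 0.867% of the gene, against 47.6% at Malat1 in E14. Neat1 had 6 exonic clusters in each line, or 0.289 per kb of exon, beside medians of 0.269 for all genes and 0.277 for protein-coding genes. With clusters within 100 bp counted as 1 it was 0.193, below the median of 0.289 over the 10989 genes with an exonic cluster in E14, where it ranked 7858. Without clusters of an interquantile width under 3 bp it was 0.144, against a median of 0.301 over 10571 genes in E14. The median of 0.269 is over 13144 genes with any cluster, exonic or not. These medians thus cover unlike sets of genes and cannot be set against each other. Among 598 genes with at least 5 exonic clusters in E14, Malat1 was 15th by this density and Neat1 592nd. The file holds no signal, and how far abundance of the RNAs goes with the number of clusters was not tested.

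**Figure D2:**
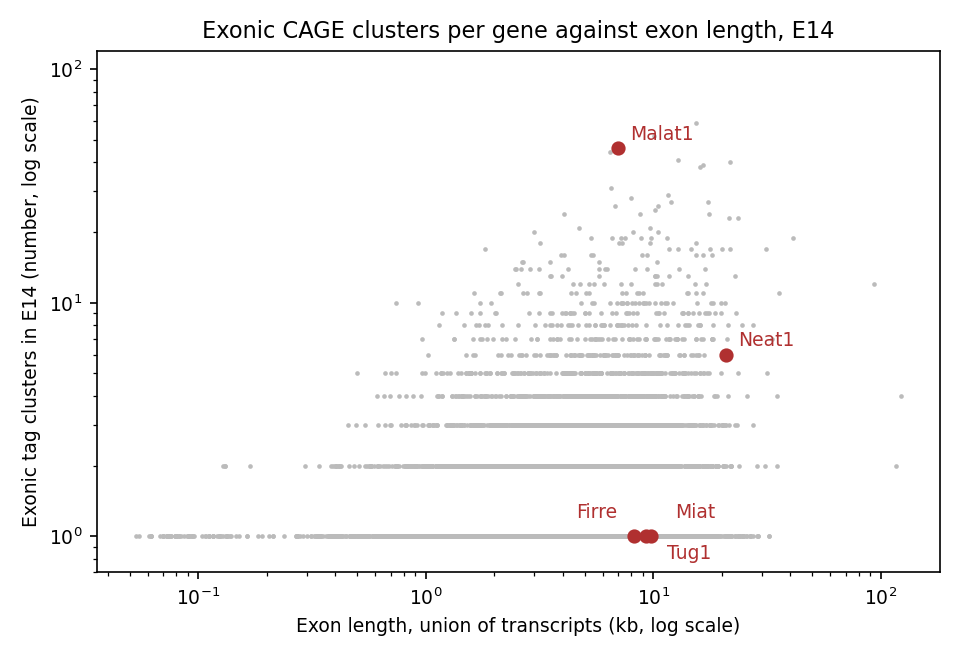
Number of exonic tag clusters in E14 against exon length in kb, both on log scales, 1 grey point for each gene with an exonic cluster and the 5 lncRNA genes in red. Malat1 has 46 clusters over 6.98 kb of exon and stands near the upper edge; Neat1 has 6 over 20.8 kb, and Tug1, Miat and Firre have 1 each.

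The genes nearest to Malat1 in cluster density, by Euclidean distance over the 3 lines among 1069 genes with at least 5 clusters in each, were Gm49776 (6.58 per kb in E14), Gm37376 (6.62), Rps4x (6.74), Hist1h1a (6.75) and Akap12 (6.81). Gm37376 is the model inside Malat1 on the other strand. Rps4x encodes a ribosomal protein and Hist1h1a a linker histone, and of the 5 only Akap12, a scaffold of protein kinase A, has an exon length near that of Malat1, 6.46 kb against 6.98 kb. The genes nearest to Neat1 were Gse1 (0.290), Ranbp3 (0.287), Fgfr2 (0.290), Cnot1 (0.291) and Tcf4 (0.292).

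Tug1 had 1 cluster in each line, chr11:3649003-3649112. It was 110 bp long, its interquantile width was 46 bp in E14, A1 and C7, and its dominant TSS lay at 652 bp in all of them, 21 bp beyond the start of transcript Tug1-204. This made it a broad start, unlike the sharp starts of Malat1 and Neat1. On the opposite strand 1 cluster at chr11:3649204-3649282 faced away from it, 71 bp from the start of Morc2a in E14, a protein-coding gene on the plus strand. Its dominant TSS was at 411 bp in E14 and C7 and at 448 bp in A1.

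Miat also had 1 cluster in each line, chr5:112228639-112228646, of 8 bp. Its dominant TSS was at 749 bp in E14 and A1 and at 754 bp in C7, where the first is 2 bp from the start of Miat-202 at 751 bp and the second is the annotated start of Miat-204. No cluster lay at the most upstream annotated start. The bases at chr5:112228627-112228666 and chr5:112228622-112228661, with the last base before the TSS and the first base of the RNA in capitals, show that the pair at the TSS differed between both positions.
Miat 749 bp, E14 and A1: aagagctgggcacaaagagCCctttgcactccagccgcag
Miat 754 bp, C7: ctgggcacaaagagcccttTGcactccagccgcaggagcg

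Firre had 3 clusters in each line. The start cluster, chrX:50635238-50635321, had its dominant TSS at 63 bp in the 3 lines and an interquantile width of 62 bp in E14 and A1 and 59 bp in C7, the broadest start of the 5 genes. The others were intronic. One, chrX:50626214-50626215, was 2 bp long at 9106 bp, and the other, chrX:50571660-50571679, was 20 bp long at 63643 bp in E14 and 63642 bp in both clones. By exonic density the 3 genes were alike, with 0.103 per kb for Tug1, 0.108 for Miat and 0.121 for Firre, below the median of all genes.

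**Figure D3:**
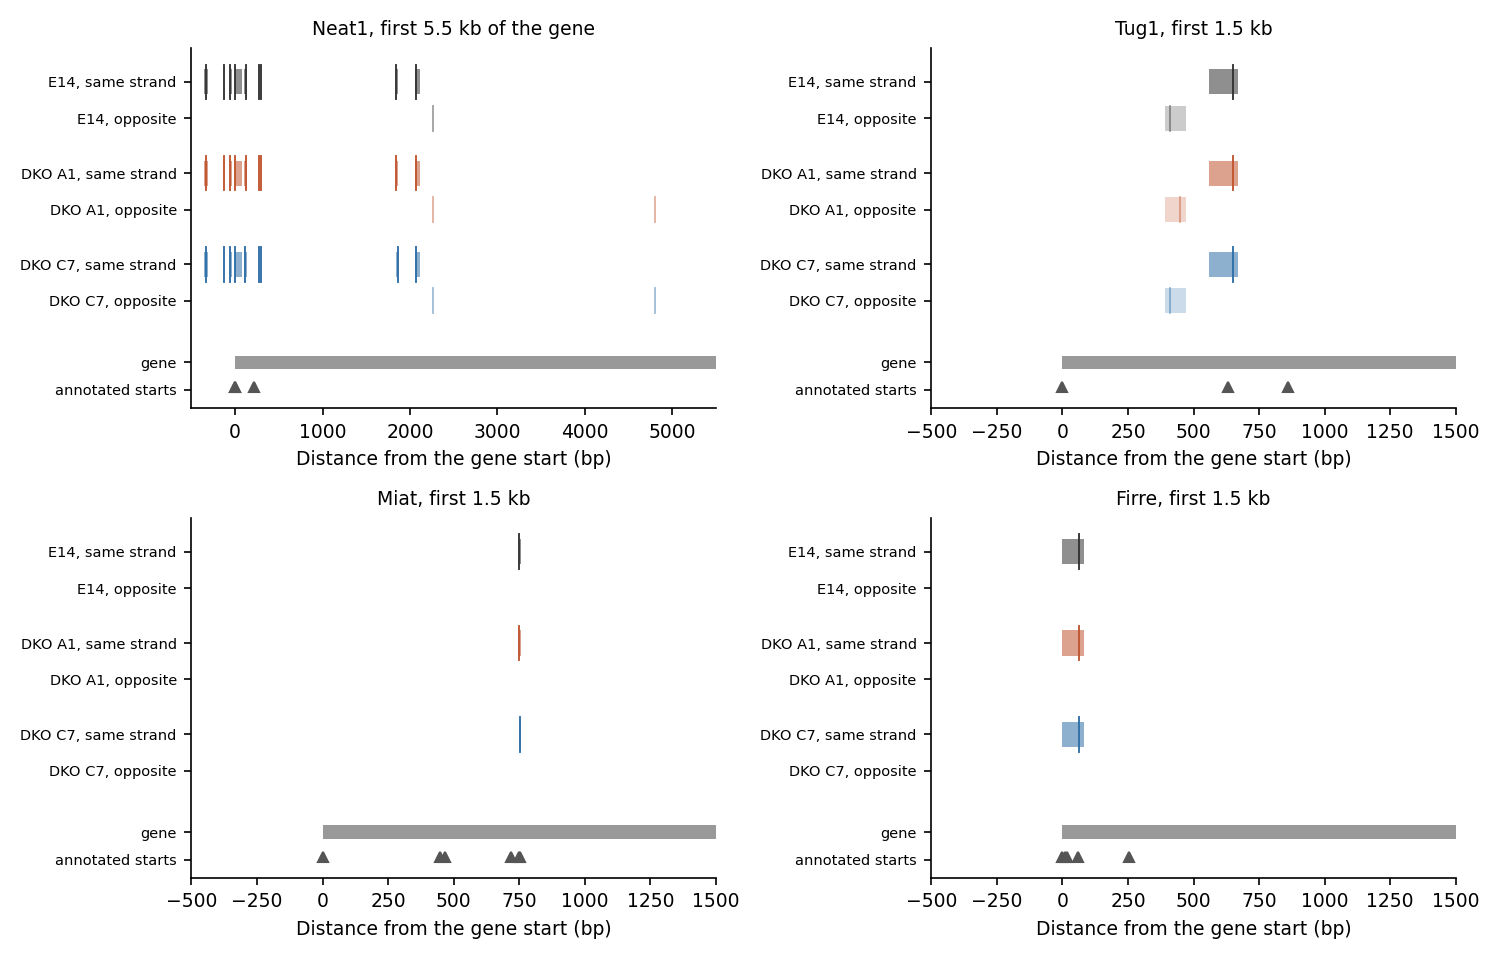
Tag clusters at the starts of Neat1, Tug1, Miat and Firre by distance from the gene start in bp, drawn as for Malat1, with same-strand and opposite-strand clusters of E14, DKO A1 and DKO C7. The Neat1 panel shows 9 same-strand clusters up to 2110 bp and an opposite-strand cluster at 4807 bp in A1 and C7 that E14 lacks; the intronic clusters of Firre lie outside its panel.

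The 3 lines had nearly the same clusters at these genes. All 60 clusters of E14 were overlapped by a cluster of the same strand in both clones, beside 98.8% of all E14 clusters, and 59 had the same start and end in the 3 lines, beside 97.3%. Because nearly all cluster bounds are common to the lines across the genome, equal numbers of clusters at Malat1 and Neat1 carry little weight. The exception was the Malat1 cluster at chr19:5796693-5796722 in E14 and C7, which spanned 6 bp in place of 30 bp in A1. On the opposite strand, the cluster at chr19:5840671-5840674, 4807 bp inside Neat1, was present in A1 and C7 and not in E14. A further opposite-strand cluster, 2 bp wide at 2269 bp, was present in the 3 lines. The one at 4807 bp was 4 bp wide, and it was the one cluster on either strand of the 5 genes that was not found in all lines. The share of all clusters that both clones have and E14 lacks was not computed. This cluster therefore has no background beside it.

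The dominant TSS was at the same base in the 3 lines for 41 of the 60 clusters, 32 of 46 at Malat1 and 6 of 9 at Neat1. Over all E14 clusters the share was 65.5%, so these genes together lay near the background of 32857 clusters. Of clusters whose interquantile region held 10 bp or more, 24 of 39 kept their base, beside 66.3%. Among these it was 20 of 31 at Malat1 and 2 of 5 at Neat1. The dominant TSS moved to the same new base in both clones in 5 clusters, 4 of Malat1 and 1 of Firre, beside 8.37% of all clusters.

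In A1, 38 of the 46 dominant TSSs of Malat1 were at the base of E14, beside 76.2% of all E14 clusters with a partner there. The other 8 moved by a median of 15.5 bp, 5 of them towards the gene start, beside 49.4% upstream moves over all clusters that moved. In C7, 36 were at the base of E14, beside 78.9%, and 10 moved by a median of 10 bp, 7 of them towards the gene start, beside 47.8%. Over all clusters that moved, the median was 5 bp in each clone, and 12 bp for those whose interquantile region in E14 held 10 bp or more. The longest was in the cluster chr19:5799375-5799646, whose dominant TSS was at 3296 bp in E14 and C7 and at 3029 bp in A1, at opposite ends of an interquantile region of 268 bp that had the same width in the 3 lines. The 3 clusters with the same move in both clones by more than 1 bp were those at 2581 bp (18 bp upstream), 2840 bp (14 bp upstream) and 3964 bp (8 bp downstream). At Neat1 no dominant TSS moved in A1, and 3 moved in C7, from -60 to -54 bp, from 130 to 113 bp and from 1844 to 1863 bp.

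The interquantile region was wider in both clones than in E14 for 10 of the 60 clusters, 8 of Malat1 and 2 of Neat1, beside 12.3% of all E14 clusters. It was narrower in both for 2 clusters, both of Malat1, beside 3.96%. The Malat1 clusters that widened included the start cluster and the 2 that follow it, as given above, the cluster at 3722 bp (78 bp in E14 and 96 bp in each clone) and the cluster at 5376 bp (24, 37 and 38 bp). The 2 that narrowed were those at 5119 bp (71, 57 and 58 bp) and at 4924 bp (7, 6 and 6 bp). Without separate libraries, the spread to set these differences against is not known.

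**Figure D4:**
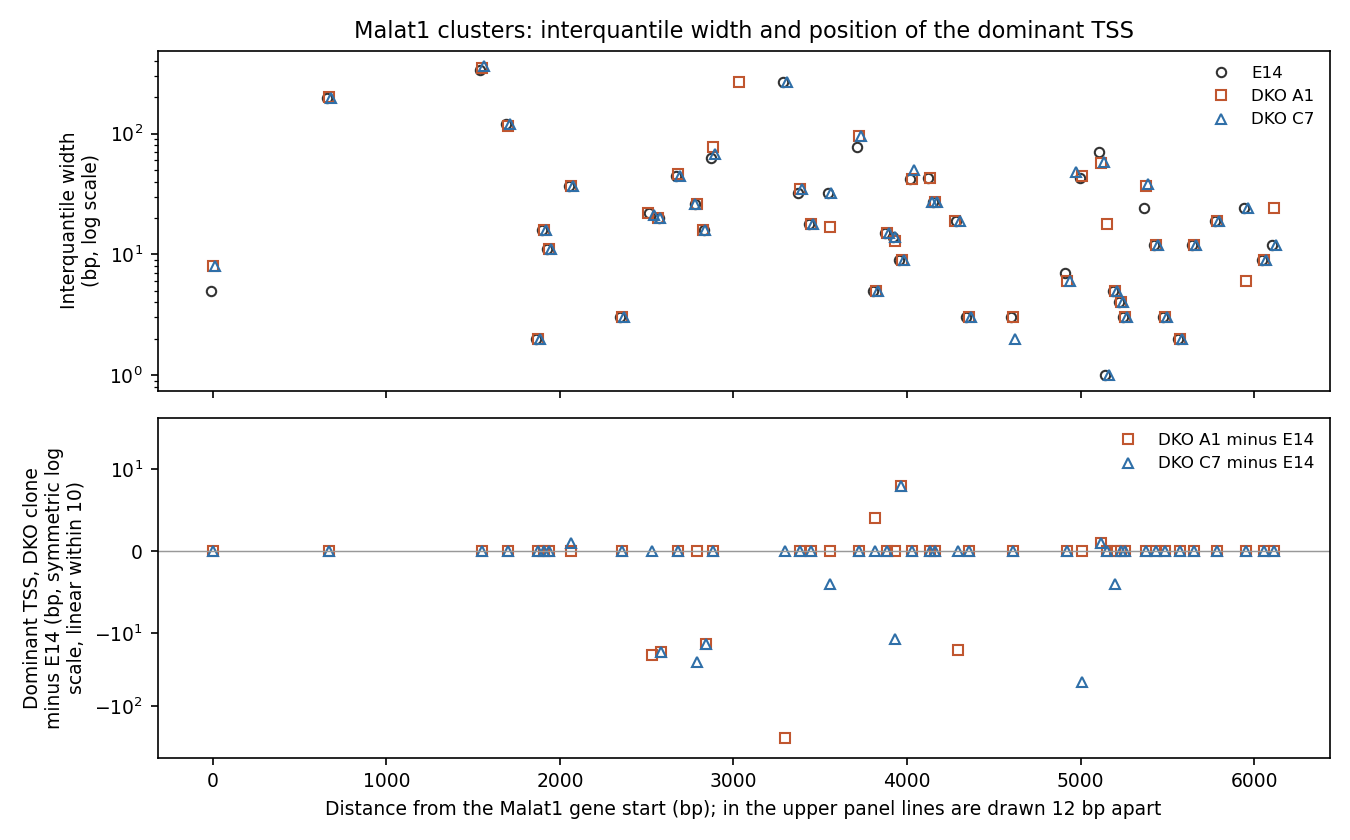
Interquantile width in bp (log scale) of each Malat1 cluster in E14, DKO A1 and DKO C7 against the distance of its dominant TSS from the gene start, and below it the move of the dominant TSS from E14 to each clone in bp (symmetric log scale, negative towards the gene start). The widest clusters lie in the first 2000 bp and at 3296 bp (3029 bp in A1), most moves are 0, and the move of 267 bp in A1 stands apart.

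Genes for proteins that build paraspeckles with Neat1 were read in the same way. All 20 genes of the list had a cluster, with a median of 6 in E14, 6 in C7 and 6.5 in A1. Highest in E14 were Hnrnpa1 (19 clusters) and Sfpq (17), which encode RNA-binding proteins, and each had the same number in the 3 lines. The number was the same in the 3 lines for 18 of the 20 genes, beside 96.1% of all genes with a cluster in E14, most of which have fewer clusters. In E14 7 of them had at least 9 clusters, the number at Neat1, beside 2.78% of all 13144 genes with a cluster.

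Other lncRNA genes studied in mESCs or in the nucleus were set beside Malat1. Of 32 listed, 30 were in the annotation and 25 had a cluster, with a median of 3 clusters in each line over those with a cluster. The highest was Tsix, the antisense partner of Xist, with 36 clusters in E14, 37 in A1 and 35 in C7, fewer than the 46 of Malat1 in each line. Only 8 of them in each line were exonic, or 1.32 per kb of exon, against 6.59 at Malat1. Meg3, an imprinted RNA, had 18 in each line, and Sox2ot, whose gene surrounds Sox2, had 14 in E14 and A1 and 15 in C7, of which 8, 8 and 9 were also counted for Sox2. The number was the same in the 3 lines for 22 of the 25, beside the same 96.1%.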

How the data were processed

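Nuclear RNA of 8 CAGE-seq libraries had been reverse transcribed from random primers and its caps captured. The authors aligned reads to mm10 using STAR 2.4.2a, retained those aligned once, pooled the libraries of each line and, after power-law normalisation in CAGEr 1.28.0, grouped the 5′ ends into tag clusters. The labels' processing notes also name SAMtools 1.3 and bedtools 2.17.0. How much signal made a cluster is not given in the sources used here. The deposited clusters, which CAGEr exported after this normalisation and pooling by the authors, hold positions and a score that is 0 in every row. The score was not used, and the clusters carry no depth. The paper reports mapped reads for each library, which were not used here.

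From the positions, clusters were assigned to genes of GENCODE release M21 (the study names release 22), counted and compared between lines with Python 3.11.15, NumPy 2.4.6, SciPy 1.17.1 and Matplotlib 3.10.9. Lines shared a cluster where same-strand clusters overlapped by 1 bp or more. The interquantile region was taken as the largest block of a cluster. No p-value was computed, because clusters cannot stand in for replicates. Assignment was tested on simulated clusters and recovered 200 of 200 genes. Sequences came from GENCODE transcripts and from RefSeq promoter windows, which were matched by symbol for 4 genes (Malat1, Tug1, Miat and Firre). The genes named are the 5 members, the 5 genes nearest in density to Malat1 and to Neat1, and the 3 with most clusters in each list, of which 1 is not reported here. Genes that show how Malat1 ranks, the lineage markers and the knocked-out genes were added. The members and lists were chosen with earlier results of these data known. Alternatives were other windows, strands, widths, merging and overlap rules.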

Additional observations from a re-analysis of the deposited data

How the results depend on the processing

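With clusters of a line within 100 bp counted as 1, the 5 genes had 17 clusters in each line in place of 60, the density of Malat1 was 1.00 per kb of exon and that of Neat1 0.193. Without clusters of an interquantile width under 3 bp, the Neat1 density was 0.144 in each line, the median width at Malat1 was 19 bp in E14 and C7 and 18 bp in A1, and that at Neat1 was 23 bp in each line. By the whole cluster the median width was 26 bp in E14 and C7 and 25 bp in A1 at Malat1, and 23 bp in each line at Neat1. With a promoter window of 100 bp, 9 Malat1 clusters lay at annotated starts in each line, and 4 Neat1 clusters in C7. The other 51 alternative values of the main results stayed within 1.5 times the main value, or for widths within the range of the 3 lines; 41 clusters with the same dominant TSS became 44 at a tolerance of 1 bp and 48 at 5 bp. No paired analysis was possible with the clusters used here, because the libraries of each line were merged before clusters were called. For the same reason no library could be left out of them. Depth limits what an absent cluster means, since the signal below which none was called is not known.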

Other observations

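The 22035 bp between the Malat1 start and the 3′ end of Neat1 held 5 clusters in each of the 3 lines, none of which the gene rule assigns to Malat1 or Neat1 on their own strand. On the minus strand, chr19:5803510-5803544 and chr19:5803566-5803577 lay 841 and 905 bp upstream of the Malat1 start in E14, outside the window of 500 bp, while the Neat1 cluster 333 bp upstream lay inside it. On the plus strand were chr19:5802811-5802812, chr19:5803757-5803775 and chr19:5809896-5809906.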
